A study of Rattus norvegicus with 48 samples.

Results

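Perivenous hepatocyte genes were followed across a rat model of chemically induced liver cancer. The list held 8 genes: Cyp1a2, Cyp2e1, Oat, Glul, Rgn, Avpr1a, Axin2 and Tbx3. Members were chosen by name, and each was read from the brightest probe that carried its symbol in the deposited array table. A named probe was found for 7 of the 8, with 1 probe each, among 9273 named genes that were detected, and all 7 passed the filter on detection. Glul was not analysed here. Arrays were made from 48 laser-captured pieces of liver of male F-344 rats, 1 array per piece.

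The groups were 10 nodules labelled krt-19+ (KRT19-positive) and 10 labelled krt-19- (KRT19-negative), taken 10 weeks after initiation, 4 adenomas and 5 early carcinomas (eHCC) at 10 months, 9 advanced carcinomas (aHCC) at 14 months, and 10 control livers. The labels give the same treatment text for every sample. In it the carcinogen diethylnitrosamine was injected at 150 mg/kg, and after 2 weeks of recovery the rats ate 0.02% 2-acetylaminofluorene for 1 week on either side of a partial hepatectomy. The labels leave unsettled whether the control rats received any of this, and do not state their age. The labels do not tie a piece of tissue to an animal, so pieces may share an animal and the p-values below may be too small, since they measure the spread between pieces.

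Nodules were also read by sample number, because the Krt19 transcript did not follow the label in all of them. Krt19, a keratin of bile ducts and liver progenitors, lay between 11.64 and 13.15 on the log2 intensity scale in KRT19-positive nodules 1 to 5, against 7.69 to 10.50 in KRT19-negative nodules 6 to 10. In the second series of numbers the order was turned: KRT19-positive nodules 20 to 24 lay between 7.70 and 10.60, and KRT19-negative nodules 15 to 19 between 11.49 and 12.96. Control livers lay between 7.38 and 8.76. Nodules 1 to 5 and 15 to 19 are called Krt19-high and nodules 6 to 10 and 20 to 24 Krt19-low. Labels are those of the samples.

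Hepatocytes differ along the axis from the portal vein to the central vein. Those next to the central vein, called perivenous, receive Wnt signals from the endothelium of that vein, and stabilised beta-catenin acts there with TCF/LEF factors to keep up genes of drug oxidation and of glutamine synthesis. Periportal cells at the other end carry urea synthesis and gluconeogenesis. Cyp1a2 and Cyp2e1 are perivenous cytochromes P450, known for activating arylamines and small nitrosamines. Oat, ornithine aminotransferase, and Glul, glutamine synthetase, lie on the route that clears ammonia as glutamine. Rgn encodes regucalcin, a calcium-binding lactonase of ascorbate synthesis in rats. Avpr1a is the vasopressin V1a receptor. Axin2 is a feedback inhibitor and Tbx3 a transcriptional repressor, both known as Wnt targets.

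Promoters are shown for the 3 members that moved most, Cyp1a2, Oat and Avpr1a. Those of Cyp2e1 and Axin2 are shown because they hold the core motif of TCF/LEF factors. Each window runs from 250 bases before to 50 after the start of the gene, from RefSeq on the rat assembly GRCr8, written 5′ to 3′ on the strand of the gene. Capitals mark the core motif CTTTGA or its reverse complement TCAAAG. The windows are chr8:66978100-66978399 (minus strand) for Cyp1a2, chr1:196797705-196798004 (minus) for Oat, chr7:59999493-59999792 (plus) for Avpr1a, chr1:205269717-205270016 (plus) for Cyp2e1 and chr10:94398535-94398834 (plus) for Axin2.
Cyp1a2: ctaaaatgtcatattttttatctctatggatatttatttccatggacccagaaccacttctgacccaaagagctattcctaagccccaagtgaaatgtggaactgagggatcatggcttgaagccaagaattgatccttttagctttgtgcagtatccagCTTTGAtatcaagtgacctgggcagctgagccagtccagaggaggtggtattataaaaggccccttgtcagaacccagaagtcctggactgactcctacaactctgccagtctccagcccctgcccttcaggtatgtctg
Oat: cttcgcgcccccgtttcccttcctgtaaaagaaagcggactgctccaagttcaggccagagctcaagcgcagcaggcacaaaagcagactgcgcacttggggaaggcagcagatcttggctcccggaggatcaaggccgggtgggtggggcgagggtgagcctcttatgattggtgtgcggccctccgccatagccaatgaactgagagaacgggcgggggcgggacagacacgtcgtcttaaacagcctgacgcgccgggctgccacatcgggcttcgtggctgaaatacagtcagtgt
Avpr1a: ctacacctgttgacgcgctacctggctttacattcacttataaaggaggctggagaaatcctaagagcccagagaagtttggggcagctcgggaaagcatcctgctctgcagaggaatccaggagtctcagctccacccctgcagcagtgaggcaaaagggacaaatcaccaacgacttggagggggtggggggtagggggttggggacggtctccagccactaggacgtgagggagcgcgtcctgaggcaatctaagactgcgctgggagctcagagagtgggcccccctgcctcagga
Cyp2e1: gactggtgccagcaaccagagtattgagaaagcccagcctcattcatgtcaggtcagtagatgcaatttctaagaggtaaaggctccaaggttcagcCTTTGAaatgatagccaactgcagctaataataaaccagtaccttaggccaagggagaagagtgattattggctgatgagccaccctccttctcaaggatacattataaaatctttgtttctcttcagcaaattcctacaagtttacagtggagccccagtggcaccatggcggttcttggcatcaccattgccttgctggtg
Axin2: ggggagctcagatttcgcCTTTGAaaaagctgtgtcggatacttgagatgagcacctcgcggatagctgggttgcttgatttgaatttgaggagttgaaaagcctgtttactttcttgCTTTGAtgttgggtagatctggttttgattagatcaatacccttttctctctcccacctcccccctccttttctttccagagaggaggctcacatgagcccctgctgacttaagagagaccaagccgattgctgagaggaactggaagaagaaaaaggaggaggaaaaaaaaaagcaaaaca
The motif stood once in the Cyp1a2 window, 90 bases before the start, and once in that of Cyp2e1, 153 bases before it. Axin2 held 2 copies, 232 and 132 bases before the start. No copy was found in the windows of Oat, Avpr1a or Rgn. Glul, which has 2 windows in the table, held a copy on the opposite strand 229 bases before one start and none at the other. One such motif was present on either strand in 16.1% of the 33469 rat promoter windows searched, 5384 in number, so a copy is common. Searches for GTTAAT, a half-site of the hepatocyte factor HNF1 (7.45% of windows), and for GCGTG, the core of the aryl hydrocarbon receptor element (29.7%), found none in the windows of the members. Promoter sequences were matched for 7 of the 8 members, Tbx3 being named only.

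Between 8323 and 11434 probes were detected per array, with the lowest number in control liver and the highest in eHCC. Summed signals of 7 hepatocyte markers such as Alb lay between 16.9 and 18.0 on the log2 scale in all 48 arrays, with the lowest in aHCC 29. Several of these markers lay near the highest level on the arrays, 15.54, with means of 15.18 for Alb, 15.17 for Tf and 15.22 for Serpina1 in eHCC. Differences in this sum may therefore be compressed. Summed biliary markers (5 of 7 listed, Krt19 among them) lay between 13.2 and 14.1 in KRT19-positive nodules 1 to 5, between 13.0 and 13.9 in KRT19-negative nodules 15 to 19, between 12.4 and 15.6 in eHCC, between 12.1 and 15.3 in adenomas and between 11.0 and 14.1 in aHCC, against 10.2 to 10.8 in control liver. Stellate cell and fibroblast markers (6) lay between 12.8 and 13.9 in Krt19-high nodules, between 12.4 and 14.6 in eHCC and between 11.2 and 12.2 in control liver. Macrophage markers (3) lay between 10.7 and 11.6 in Krt19-high nodules, between 10.1 and 11.2 in adenomas and between 10.3 and 11.0 in eHCC. They lay between 11.0 and 12.1 in Krt19-low nodules, between 11.0 and 12.4 in aHCC and between 11.6 and 12.4 in control liver. Endothelial markers (3) lay between 10.4 and 11.3 in nodules and between 10.3 and 11.1 in adenomas. In eHCC they lay between 10.2 and 10.9, in aHCC between 9.8 and 11.5 and in control liver between 10.6 and 11.1. Red cell markers (5) lay between 12.9 and 14.7 in nodules, between 15.0 and 16.6 in aHCC and between 15.0 and 16.5 in control liver. None of these markers can be read as absent, since background was not subtracted. The part of other cell types in the results below was not tested, and fewer perivenous cells in a piece and less RNA per cell cannot be told apart.

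**Figure D1:**
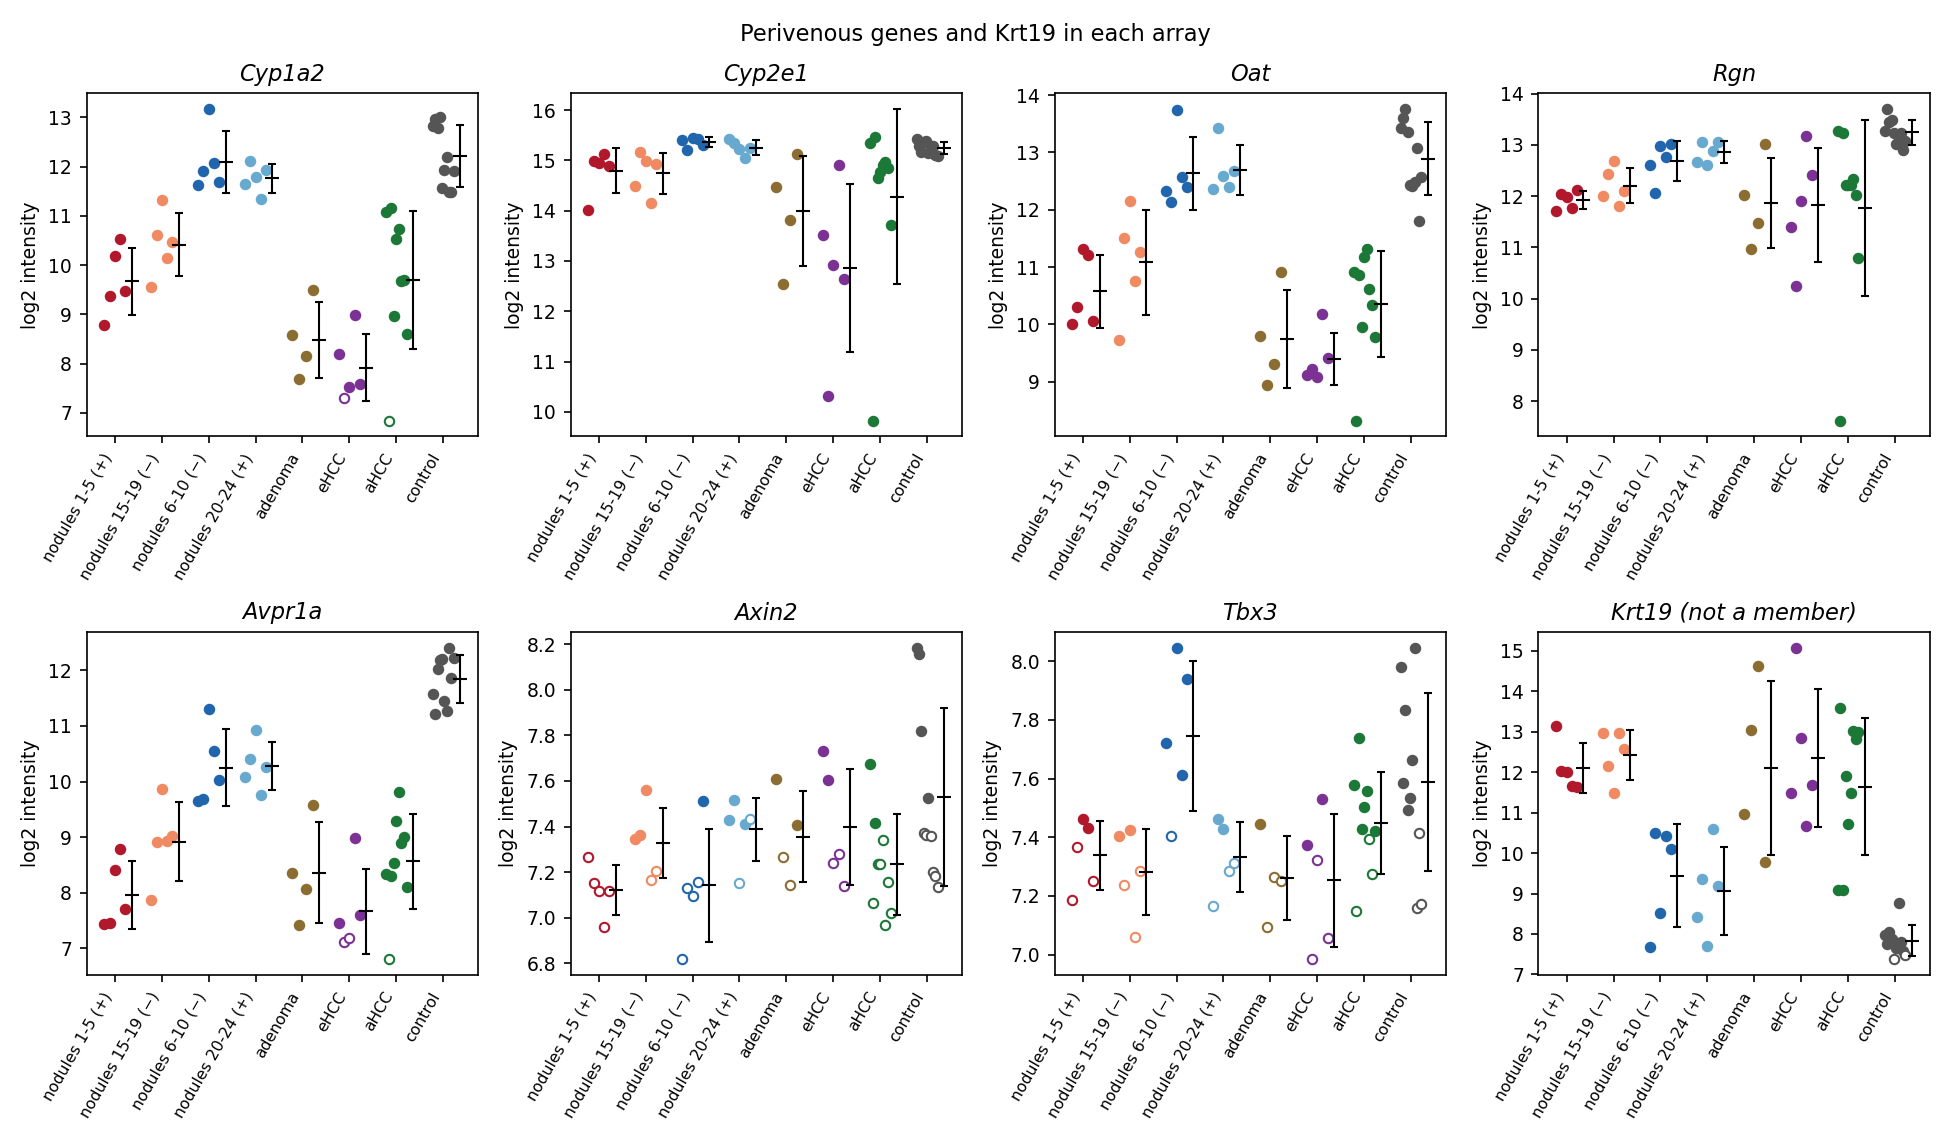
Log2 intensity (vertical axis, own range per panel) of the 7 measured perivenous genes and of Krt19 in each array. Columns are the 4 ranges of nodule numbers with their label in brackets, adenomas, eHCC, aHCC and control liver. Filled points were detected, open points were not, and the bar to the right of each column is the mean ± SD. Cyp1a2 and Oat are low in nodules 1-5 and 15-19 and lower in adenomas and eHCC, with means of 7.92 and 9.40 in eHCC against 12.22 and 12.89 in control liver.

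Cyp1a2, the drug-oxidising P450, was lower in the Krt19-high nodules and in all later lesions. Its log2 intensity was 8.79, 9.37, 10.18, 10.53 and 9.48 in KRT19-positive nodules 1 to 5 and 9.55, 10.61, 11.32, 10.15 and 10.47 in KRT19-negative nodules 15 to 19. In Krt19-low nodules it was 11.64, 11.91, 13.17, 12.07 and 11.68 (KRT19-negative, 6 to 10) and 11.65, 12.12, 11.79, 11.34 and 11.93 (KRT19-positive, 20 to 24). Every one of the 10 Krt19-high nodules thus lay below every Krt19-low nodule. Adenomas had 8.59, 7.69, 8.15 and 9.50, and eHCC had 8.20, 7.30, 7.53, 8.98 and 7.59, of which 4 of 5 were above detection. In aHCC the lowest, median and highest values were 6.84, 9.70 and 11.15, and in control liver 11.48, 12.06 and 13.01. No array of adenoma, eHCC or aHCC reached the lowest control.

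Against control liver, Cyp1a2 was 5.84-fold lower in nodules 1 to 5 (log2 difference -2.55 ± 0.44 SE, limma adjusted p = 1.6e-05) and 3.47-fold lower in nodules 15 to 19 (-1.80 ± 0.44, limma adjusted p = 0.0016). It was 13.3-fold lower in adenomas (-3.74 ± 0.60, limma adjusted p = 6.9e-06), 19.7-fold lower in eHCC (-4.30 ± 0.56, limma adjusted p = 7.5e-08) and 5.73-fold lower in aHCC (-2.52 ± 0.47, limma adjusted p = 2.7e-05). In Krt19-low nodules the differences were -0.12 ± 0.44 (6 to 10) and -0.45 ± 0.44 (20 to 24) and missed the threshold. Over the alternatives they ran from -0.80 to 0.33 (6 to 10) and from -1.13 to 0.01 (20 to 24). Nodules 20 to 24 passed when fitted within their own set of 12 sample numbers (limma adjusted p = 0.046, alternatives 0.046 to 0.998). Cyp1a2 was the only member that differed between the carcinoma stages, being 1.78 ± 0.57 higher in aHCC than in eHCC on the log2 scale (limma adjusted p = 0.025, against 7.37% of 13479 features higher and 8.46% lower). Without aHCC 29 or without eHCC 44, Cyp2e1 passed as well (1.97 ± 0.38 without aHCC 29, limma adjusted p = 0.00017), and with array weights Cyp2e1, Oat and Avpr1a did. The Cyp1a2 call was lost without aHCC 30 or without eHCC 39, 40 or 45 (adjusted p up to 0.077), and with sets of 12 consecutive sample numbers as a block (adjusted p = 0.65, the highest over 12 alternatives, the lowest being 0.00051). Means ordered from eHCC (7.92 ± 0.68 SD) over adenomas (8.48 ± 0.77), nodules 1 to 5 (9.67 ± 0.69), aHCC (9.70 ± 1.40), nodules 15 to 19 (10.42 ± 0.65), nodules 20 to 24 (11.77 ± 0.29) and nodules 6 to 10 (12.10 ± 0.63) to control liver (12.22 ± 0.63). Each of these neighbours differed by less than 1 SD of the more variable one, apart from the step between nodules 15 to 19 and 20 to 24 and the step between adenomas and nodules 1 to 5.

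Oat, which turns ornithine into a glutamate precursor, followed much the same order of groups. It measured 10.00, 10.31, 11.32, 11.21 and 10.06 in nodules 1 to 5 and 9.73, 11.52, 12.16, 10.76 and 11.26 in nodules 15 to 19, against 12.33, 12.13, 13.74, 12.58 and 12.40 in nodules 6 to 10 and 12.36, 13.43, 12.60, 12.39 and 12.67 in nodules 20 to 24. Among the Krt19-high nodules 9 of 10 lay below the lowest Krt19-low nodule, the exception being nodule 17. Adenomas had 9.81, 8.95, 9.31 and 10.91, and eHCC had 9.13, 9.23, 9.08, 10.18 and 9.41. The lowest, median and highest values were 8.32, 10.61 and 11.31 in aHCC and 11.81, 12.82 and 13.76 in control liver, with no overlap between any of these 3 lesion groups and control. Oat was 4.96-fold lower in nodules 1 to 5 (-2.31 ± 0.38, limma adjusted p = 6.2e-06), 3.50-fold in nodules 15 to 19 (-1.81 ± 0.38, limma adjusted p = 0.00025), 8.86-fold in adenomas (-3.15 ± 0.54, limma adjusted p = 2.1e-05), 11.2-fold in eHCC (-3.49 ± 0.50, limma adjusted p = 5.4e-07) and 5.77-fold in aHCC (-2.53 ± 0.42, limma adjusted p = 4.9e-06). In nodules 6 to 10 and 20 to 24 the differences of -0.25 ± 0.38 and -0.20 ± 0.38 missed the threshold. Over the alternatives they ran from -0.88 to 0.17 and from -0.87 to 0.23 and never passed (limma adjusted p no lower than 0.29 and 0.28). Means ran from 9.40 ± 0.45 (SD) in eHCC, 9.74 ± 0.85 in adenomas, 10.36 ± 0.92 in aHCC, 10.58 ± 0.64 in nodules 1 to 5 and 11.09 ± 0.91 in nodules 15 to 19 to 12.64 ± 0.64 and 12.69 ± 0.43 in nodules 6 to 10 and 20 to 24 and 12.89 ± 0.64 in control liver, and only the step between nodules 15 to 19 and 6 to 10 exceeded 1 SD of the more variable neighbour.

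Avpr1a, the vasopressin receptor, was lower than in control liver in every lesion group, Krt19-low nodules included. Nodules 1 to 5 had 7.44, 7.45, 8.42, 8.79 and 7.71, and nodules 15 to 19 had 7.86, 8.91, 9.87, 8.92 and 9.02. Nodules 6 to 10 had 9.65, 9.69, 11.30, 10.55 and 10.03, and nodules 20 to 24 had 10.08, 10.40, 10.92, 9.76 and 10.27. Adenomas had 8.36, 7.42, 8.07 and 9.59, and eHCC had 7.45, 7.11, 7.19, 8.99 and 7.59, of which 3 of 5 were above detection. The lowest, median and highest values were 6.81, 8.53 and 9.82 in aHCC and 11.21, 11.94 and 12.41 in control liver. Of all 38 lesion arrays, nodule 8 alone reached the control range.

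The fall in Avpr1a was 14.7-fold in nodules 1 to 5 (-3.88 ± 0.36, limma adjusted p = 1.8e-11), 7.57-fold in nodules 15 to 19 (-2.92 ± 0.36, limma adjusted p = 2.0e-08), 3.02-fold in nodules 6 to 10 (-1.60 ± 0.36, limma adjusted p = 0.0026) and 2.94-fold in nodules 20 to 24 (-1.56 ± 0.36, limma adjusted p = 0.0036). Later lesions showed 11.1-fold lower levels in adenomas (-3.48 ± 0.53, limma adjusted p = 3.2e-06), 18.0-fold in eHCC (-4.17 ± 0.49, limma adjusted p = 1.2e-08) and 9.66-fold in aHCC (-3.27 ± 0.41, limma adjusted p = 2.8e-08). Since background was not subtracted, folds of signals near it are understated, and after background correction (neqc) the eHCC difference was -5.77. The Krt19-low calls were the weakest: with sets of 12 sample numbers as a block, nodules 6 to 10 gave -1.15 (adjusted p = 0.27, alternatives 0.0020 to 0.27) and nodules 20 to 24 gave -1.82 (adjusted p = 0.098, alternatives 0.00030 to 0.098). In order, means were 7.67 ± 0.76 (SD) in eHCC, 7.96 ± 0.61 in nodules 1 to 5, 8.36 ± 0.91 in adenomas, 8.57 ± 0.85 in aHCC, 8.92 ± 0.71 in nodules 15 to 19, 10.24 ± 0.69 and 10.28 ± 0.43 in nodules 6 to 10 and 20 to 24, and 11.84 ± 0.44 in control liver. The steps to the Krt19-low nodules and from them to control liver exceeded 1 SD of the more variable neighbour, and the others did not.

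Cyp2e1, the ethanol- and nitrosamine-oxidising P450, is one of the brightest probes, and its signal lay within 0.5 of the highest level of 15.54 in 25 arrays, all 10 controls among them, so that differences at this end may be compressed. Values were 14.01, 14.99, 14.96, 15.13 and 14.89 in nodules 1 to 5 and 14.48, 15.16, 14.98, 14.15 and 14.93 in nodules 15 to 19, with 8 of these 10 below the lowest Krt19-low nodule. Nodules 6 to 10 had 15.40, 15.21, 15.44, 15.43 and 15.32, and nodules 20 to 24 had 15.42, 15.35, 15.22, 15.05 and 15.24. Adenomas spread over 14.47, 12.55, 13.82 and 15.12, and eHCC over 13.52, 10.31, 12.92, 14.91 and 12.64. The lowest, median and highest values were 9.82, 14.85 and 15.48 in aHCC, and 15.08, 15.29 and 15.43 in control liver. Of the comparisons with control liver Cyp2e1 passed in eHCC alone, where it was 5.26-fold lower (-2.39 ± 0.53, limma adjusted p = 0.00039). In aHCC the difference was -0.98 ± 0.45 (limma adjusted p = 0.080) and without aHCC 29 it was -0.42 ± 0.32 (limma adjusted p = 0.31, alternatives 0.062 to 0.62), while it passed without aHCC 30 (limma adjusted p = 0.049). In adenomas it was -1.27 ± 0.57 (limma adjusted p = 0.10), passing with array weights (adjusted p = 0.0050, alternatives 0.0050 to 0.36), and in the 4 nodule sets it lay between -0.51 and 0.11.

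Rgn, the regucalcin gene, was modestly lower. It read 11.70, 12.05, 11.98, 11.77 and 12.12 in nodules 1 to 5 and 12.01, 12.42, 12.69, 11.81 and 12.09 in nodules 15 to 19, all below the lowest control. Nodules 6 to 10 (12.61, 12.06, 12.98, 12.77 and 13.02) and 20 to 24 (12.67, 13.06, 12.61, 12.88 and 13.06) overlapped control liver, which ranged over 12.90, 13.23 and 13.70 (lowest, median and highest). Adenomas had 12.02, 10.97, 11.48 and 13.01, eHCC had 11.39, 10.24, 11.90, 13.18 and 12.42, and aHCC ranged over 7.62, 12.21 and 13.27. In nodules 15 to 19 Rgn missed the threshold (-1.04 ± 0.48, limma adjusted p = 0.099), but passed with array weights and within set 2 of 12 arrays (alternatives 0.00010 to 0.33). Rgn passed in nodules 1 to 5 (-1.32 ± 0.48, limma adjusted p = 0.034), adenomas (-1.37 ± 0.53, limma adjusted p = 0.047), eHCC (-1.41 ± 0.49, limma adjusted p = 0.021) and aHCC (-1.48 ± 0.41, limma adjusted p = 0.0034). With sets of 12 sample numbers as a block all 4 calls were lost, at adjusted p = 0.17 in nodules 1 to 5 (alternatives 0.00010 to 0.17), 0.24 in adenomas (0.00064 to 0.24), 0.17 in eHCC (0.0027 to 0.17) and 0.13 in aHCC (0.0023 to 0.47). Without controls 11 to 14 the calls in nodules 1 to 5, adenomas and eHCC were lost too. That in nodules 1 to 5 was also lost with neqc and without the detection filter. That in adenomas was lost under 8 of 13 alternatives, among them neqc, no detection filter, robust eBayes with a trend, fitting within set 4 and leaving out controls 25 to 27 or 46 to 48. Leaving out any 1 of nodules 1 to 5 ended the first call (adjusted p up to 0.074). The adenoma call did not hold without adenoma 37, 41 or 42 or without control 11, 12, 13, 14, 25, 27, 46 or 48 (up to 0.20), and that in eHCC without eHCC 38 or 39 (up to 0.15). Without aHCC 29 the aHCC difference was -0.96 ± 0.29 (limma adjusted p = 0.0057), and the largest single fall therefore sat in that array.

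Axin2 and Tbx3, the Wnt target genes, gave dim signals, detected in 17 and 26 of 48 arrays, and their differences were small. Axin2 was above detection in none of nodules 1 to 5 (7.27, 7.15, 7.12, 6.96 and 7.12) and in 4 of 10 controls (7.13, 7.37 and 8.18 for lowest, median and highest). The difference was -0.41 ± 0.14 (limma adjusted p = 0.022), and no fold is given since the signal was below detection in most arrays of both groups. The call was lost without nodule 4 (adjusted p = 0.066) and without controls 11 to 14 (adjusted p = 0.31, alternatives 6.5e-06 to 0.31), in 3 of which the transcript was detected. In aHCC the Axin2 difference was -0.30 ± 0.12 (limma adjusted p = 0.044). It was lost without any 1 of aHCC 29, 31, 32, 34, 35 or 36 or of control 11, 12, 13 or 26 (adjusted p up to 0.12). It was also lost with neqc, without the detection filter, with the block (-0.18, adjusted p = 0.44), within set 3 and without controls 11 to 14 (-0.06, adjusted p = 0.72), the adjusted p over 12 alternatives lying between 0.0036 and 0.72. In nodules 6 to 10 the difference of -0.39 ± 0.14 missed the threshold (limma adjusted p = 0.063). It passed without nodule 10 or control 46, 47 or 48, without all 3 of these controls, with the block (-1.03, adjusted p = 6.1e-05) and within its own set of 12 arrays, while without controls 11 to 14 it was -0.15 (adjusted p = 0.49). Elsewhere Axin2 lay between 6.82 and 7.56 in the other nodules, between 7.14 and 7.61 in adenomas and between 7.14 and 7.73 in eHCC, and did not pass.

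Tbx3 measured 7.40, 7.24, 7.42, 7.06 and 7.29 in nodules 15 to 19, 7.37, 6.98, 7.32, 7.53 and 7.06 in eHCC, and 7.16, 7.56 and 8.05 (lowest, median and highest) in control liver, so that the ranges overlapped. Both sets passed narrowly, by -0.31 ± 0.11 in nodules 15 to 19 and -0.33 ± 0.13 in eHCC (limma adjusted p = 0.039 in each). With eHCC and the 3 controls of their own set of 12 sample numbers, which were all below detection, the eHCC difference was 0.00439. The call in nodules 15 to 19 was lost with the block (-0.38, adjusted p = 0.11), and both calls were lost without the detection filter and without controls 11 to 14 or 25 to 27 (adjusted p 0.0014 to 0.20 over the alternatives for nodules 15 to 19 and 0.0026 to 0.99 for eHCC). Leaving out nodule 16, 18 or 19, eHCC 39, 40 or 45, or control 11, 13, 26 or 27 also ended one or both calls (adjusted p up to 0.16). Without control 46 or 48 the differences in nodules 1 to 5 and adenomas passed (adjusted p as low as 0.044 and 0.036). Nodules 6 to 10 had 7.72, 7.40, 8.05, 7.61 and 7.94, detected in 4 of 5, while nodules 1 to 5 lay between 7.19 and 7.46, nodules 20 to 24 between 7.17 and 7.46, adenomas between 7.09 and 7.44 and aHCC between 7.15 and 7.74.

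**Figure D2:**
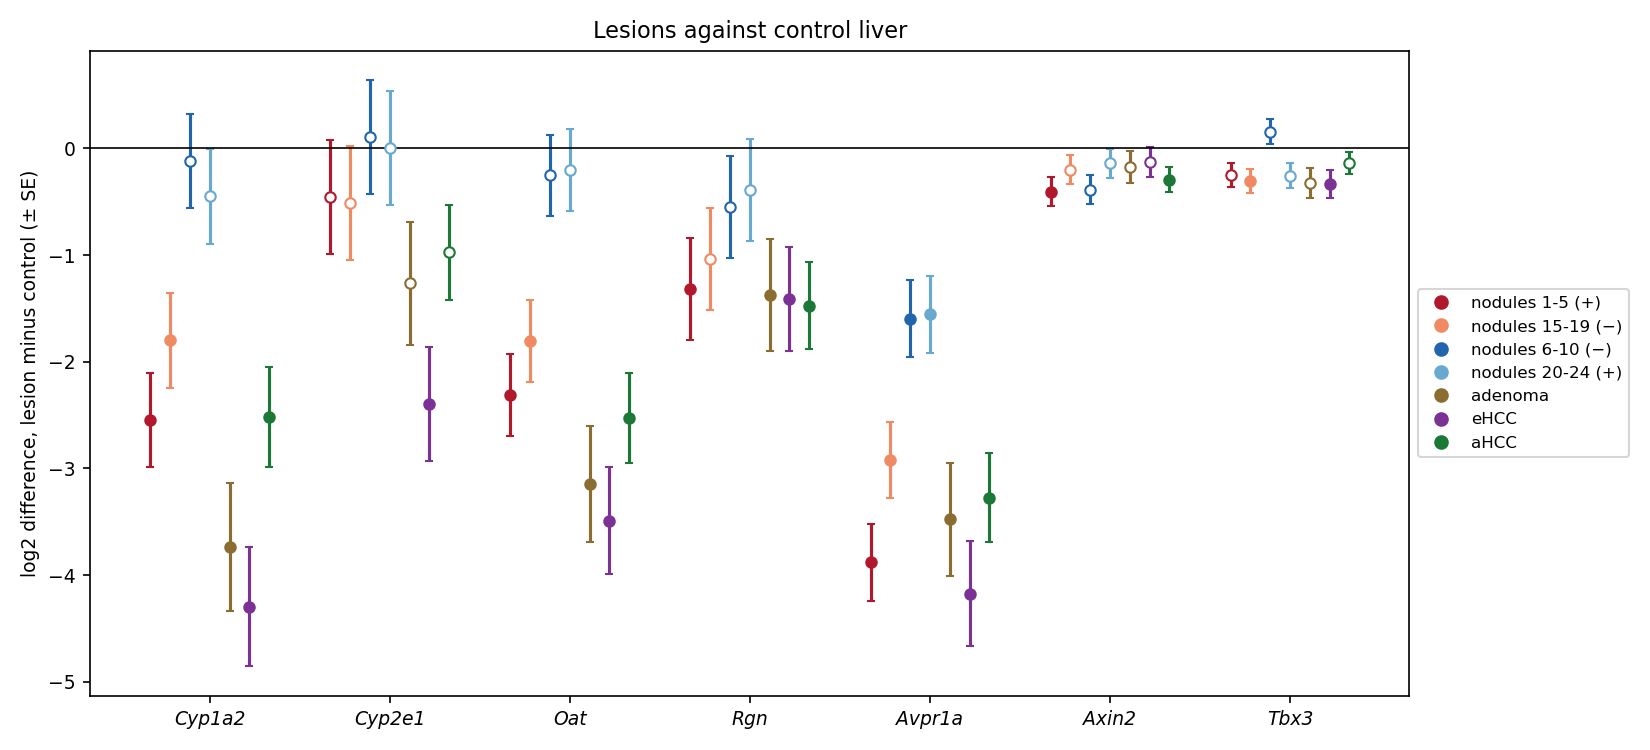
Log2 difference of each lesion set minus control liver (vertical axis) for the 7 measured genes, with 1 SE from the fit. Filled points passed at an adjusted p under 0.05 and open points did not. Cyp1a2, Oat and Avpr1a reach -4.30, -3.49 and -4.17 in eHCC, while Axin2 and Tbx3 stay between -0.41 and 0.16 in every set.

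Counted over the list, 5 of 7 measured members were lower in nodules 1 to 5 than in control liver (13.4% of 13479 features were lower and 13.5% higher) and 4 of 7 in nodules 15 to 19 (14.5% lower and 15.2% higher). In Krt19-low nodules 1 of 7 was lower in each set, Avpr1a in both (5.04% of features lower and 4.92% higher in nodules 6 to 10, and 3.56% and 3.72% in nodules 20 to 24). Adenomas had 4 of 7 lower (12.6% lower and 13.5% higher over all features), eHCC 6 of 7 (15.1% and 17.0%) and aHCC 5 of 7 (18.8% and 19.2%), and no member was higher in any of these comparisons. All of them share the same control arrays. The median log2 difference of the 7 was -1.32 in nodules 1 to 5, -1.04 in nodules 15 to 19, -0.25 in nodules 6 to 10, -0.26 in nodules 20 to 24, -1.37 in adenomas, -2.39 in eHCC and -1.48 in aHCC, where the median of all features lay near 0. By label alone, 3 of 7 were lower in the 10 KRT19-positive nodules (8.98% of features lower and 9.69% higher) and 1 of 7 in the 10 KRT19-negative nodules (9.70% and 9.83%). The first count was 1 without controls 11 to 14, in which Cyp1a2 averaged 12.89 and Oat 13.54, against 11.63 to 11.90 and 12.44 to 12.48 in the other controls. Oat in KRT19-positive nodules (-1.26 ± 0.41, limma adjusted p = 0.025) was also lost without nodule 1, 2 or 5 (adjusted p up to 0.067).

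The nodule labels themselves did not separate the members: none of 7 passed between all KRT19-positive and all KRT19-negative nodules, as did none of 13479 features (0%), of which 224 had an unadjusted p under 0.05, none of them a member. With array weights 32 features passed. Each label holds 5 Krt19-high and 5 Krt19-low nodules, and whether the labels of nodules 15 to 24 stand as meant was not tested, so this comparison by label says nothing of Krt19-high against Krt19-low nodules. Within each series of numbers members did differ, in opposite directions. KRT19-positive nodules 1 to 5 were lower than KRT19-negative nodules 6 to 10 in Avpr1a (-2.28 ± 0.42, limma adjusted p = 0.00029), Cyp1a2 (-2.43 ± 0.51, limma adjusted p = 0.0017), Oat (-2.06 ± 0.44, limma adjusted p = 0.0019) and Tbx3 (-0.41 ± 0.13, limma adjusted p = 0.049), 4 of 7 against 3.55% of features lower and 4.22% higher. KRT19-positive nodules 20 to 24 were higher than KRT19-negative nodules 15 to 19 in Oat (1.60 ± 0.44, limma adjusted p = 0.019) and Avpr1a (1.37 ± 0.42, limma adjusted p = 0.037), 2 of 7 against 2.70% of features higher and 3.64% lower, and Cyp1a2 was 1.35 ± 0.51 higher (limma adjusted p = 0.11). The Avpr1a call in the second series held in 2 of 10 fits that left out 1 nodule (adjusted p up to 0.18), failing without nodule 15, 16, 18, 19, 20, 21, 22 or 24. The Oat call failed without nodule 15, 18 or 21 (up to 0.13). The Tbx3 call in the first series held in 2 of 10 such fits, failing without any of nodules 1 to 5 or nodule 6, 8 or 10.

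That the label difference is not the same in the first and the second series was tested as the mean of nodules 1 to 5 and 15 to 19 minus the mean of nodules 6 to 10 and 20 to 24, which is the Krt19-high minus Krt19-low difference. It was -1.89 ± 0.36 for Cyp1a2 (limma adjusted p = 0.00016), -1.83 ± 0.31 for Oat (limma adjusted p = 2.7e-05) and -1.82 ± 0.29 for Avpr1a (limma adjusted p = 1.2e-05), 3 of 7 members against 9.01% of features lower and 10.2% higher. The other members did not pass: Rgn gave -0.71, Cyp2e1 -0.54, Tbx3 -0.23 and Axin2 -0.04. Leaving out any 1 nodule kept the 3 calls of Cyp1a2, Oat and Avpr1a, and without nodule 7 Tbx3 passed too (adjusted p = 0.036). With array weights Rgn passed (adjusted p = 0.0083). Tbx3 passed with array weights, with sets of 12 sample numbers as a block and without controls 46 to 48. Krt19-high nodules averaged 10.04 against 11.93 for Cyp1a2, 10.83 against 12.66 for Oat and 8.44 against 10.26 for Avpr1a in Krt19-low nodules. Summed biliary markers, which include Krt19 itself, lay between 13.0 and 14.1 in Krt19-high and between 10.3 and 12.4 in Krt19-low nodules. Summed stellate markers overlapped, with 12.8 to 13.9 in Krt19-high and 11.8 to 13.0 in Krt19-low nodules, as did summed red cell markers, which lay between 12.9 and 14.3 in Krt19-high and between 13.3 and 14.7 in Krt19-low nodules. Their part was not tested.

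Adenomas and eHCC did not differ in any of the 7 members, nor in any of 13479 features (limma, 0%, with 173 at an unadjusted p under 0.05 and none of them a member), with differences between -1.13 ± 0.65 (Cyp2e1) and 0.04 ± 0.17 (Axin2) for eHCC minus adenomas. Within these small groups the members ordered the pieces alike. Adenoma 43 was the highest of 4 and adenoma 41 the lowest for Cyp1a2, Cyp2e1, Oat, Rgn and Avpr1a. Among 5 eHCC, eHCC 44 was the highest for these 5 genes, and eHCC 39 was the lowest for all of them except Oat, where eHCC 40 was. Adenoma 43 (9.78) and eHCC 44 (10.66) also had the lowest Krt19 of their groups, and eHCC 39 the highest (15.08), while in adenomas the highest Krt19 stood in adenoma 42 (14.63). In aHCC the lowest array for these 5 genes was aHCC 29, where Krt19 was highest (13.59), and the next lowest was aHCC 36. With 4 and 5 pieces no test of such an order was made.

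**Figure D3:**
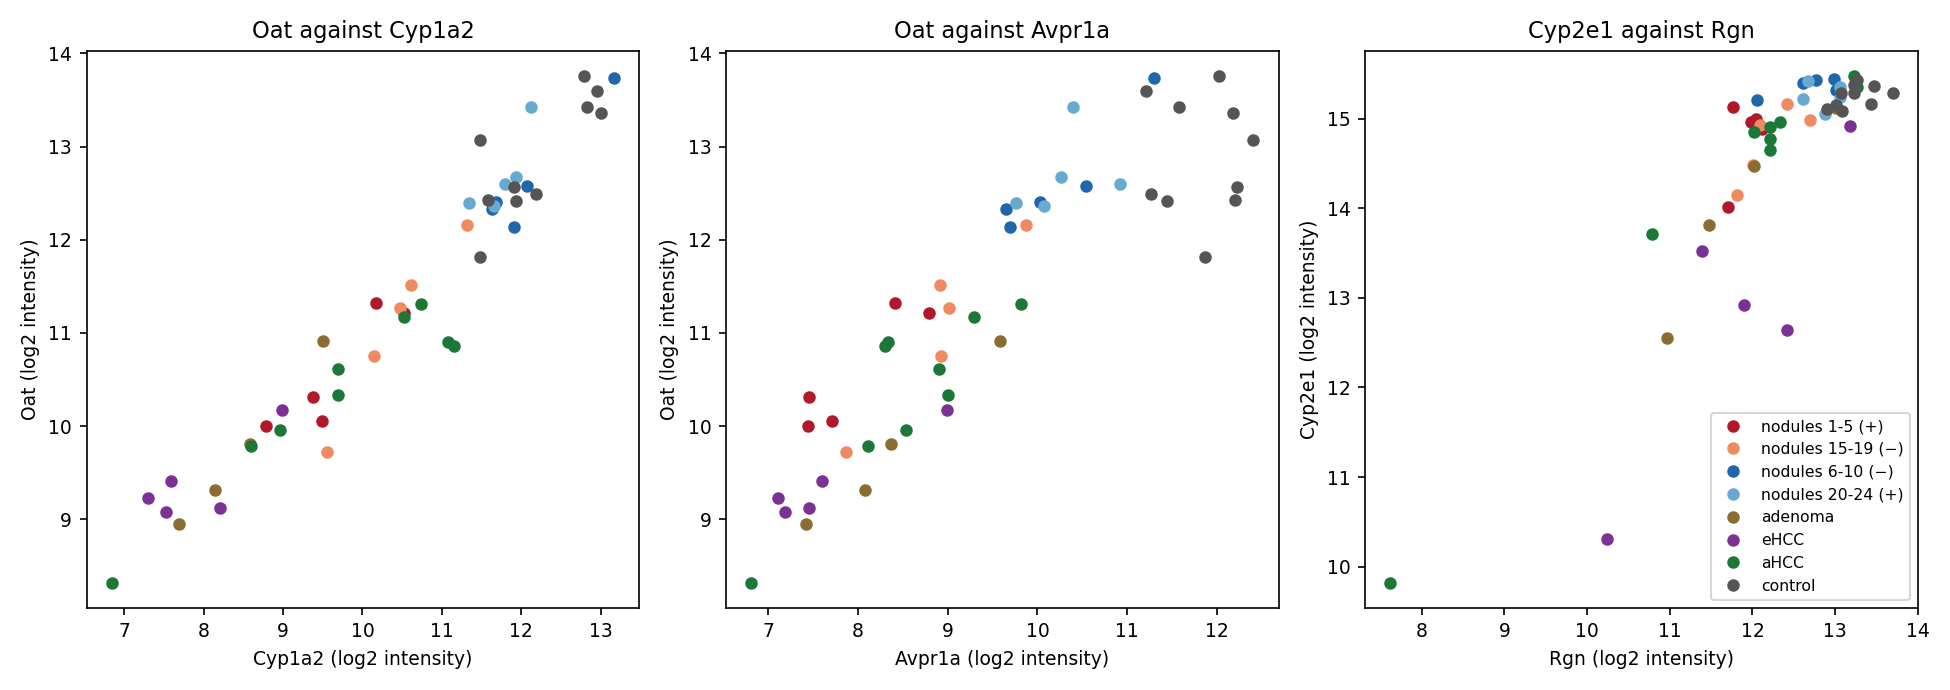
Log2 intensity of Oat against Cyp1a2 (left), Oat against Avpr1a (middle) and Cyp2e1 against Rgn (right) in 48 arrays, coloured by lesion set. Oat and Cyp1a2 lie along 1 line through all groups, and aHCC 29 lies lowest for Cyp2e1 (9.82) and Rgn (7.62). At similar Oat, Avpr1a separates control liver from the Krt19-low nodules other than nodule 8, whose Avpr1a (11.30) lies within the control range.

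Whether members moved together was asked within 4 sets, the Krt19-high nodules (n = 10), the Krt19-low nodules (n = 10), aHCC (n = 9) and control liver (n = 10), over 21 pairs each and 84 in all. Tests were two-sided permutations, exact at n = 9 and with 100000 resamples at n = 10, adjusted over the 84. Of these, 16 pairs passed, all positive: 9 in aHCC, 3 in Krt19-high nodules, 2 in Krt19-low nodules and 2 in control liver. The median r over the 10 pairs of the 5 well-detected members was 0.89 in aHCC, 0.59 in Krt19-high nodules, 0.45 in Krt19-low nodules and 0.39 in control liver. Spearman's rho passed for 6 of the 84. When the 2 arrays farthest from the median of the first gene were left out of each pair, 0 of 84 passed after adjustment, on 7 or 8 arrays. Over the 16 pairs r then lay between 0.25 and 0.95, so some kept a high r and others did not. The medians over the 10 pairs were then 0.51 in aHCC, 0.45 in Krt19-high nodules, 0.24 in Krt19-low nodules and 0.31 in control liver, and 0.19 in control liver after centring on the runs of control numbers. In aHCC a single array could decide a pair, Rgn and Avpr1a giving r = 0.70 with aHCC 29 (exact permutation p = 0.068, rho = 0.27) and r = -0.01 without it (exact permutation p = 0.97).

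Oat and Cyp1a2 were the most regular pair. Pearson's r was 0.93 in Krt19-high nodules (permutation p = 0.00034, adjusted p = 0.0048), with rho = 0.87 (permutation p = 0.0022, adjusted p = 0.043), and 0.93 without nodules 15 and 17 (permutation p = 0.0015). Centred on each series of numbers it was 0.94. In Krt19-low nodules r was 0.83 (permutation p = 0.0040, adjusted p = 0.031) with rho = 0.73 (permutation p = 0.021, adjusted p = 0.11). Centred on each series of numbers it was 0.91 (permutation p = 0.0040, adjusted p = 0.034). Without nodules 8 and 21, uncentred r was 0.31 (permutation p = 0.45), so the high r there depends on those 2 nodules. In aHCC r was 0.96 (exact permutation p = 0.00034, adjusted p = 0.0048) with rho = 0.83 (exact permutation p = 0.0083, adjusted p = 0.069), and 0.83 without aHCC 29 and 36 (exact permutation p = 0.021). In control liver r was 0.81 (permutation p = 0.0086, adjusted p = 0.045) with rho = 0.71 (permutation p = 0.026, adjusted p = 0.12). After centring on the 3 runs of control numbers (11 to 14, 25 to 27 and 46 to 48) r was 0.04. Runs of 4, 3 and 3 arrays are too short to tell whether a relation holds within them. The other pair that passed in control liver was Oat and Rgn, with r = 0.88 (permutation p adjusted = 0.012) and rho = 0.87 (adjusted p = 0.043). Centred in the same way, its r was 0.60 (permutation p adjusted = 0.30).

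Avpr1a followed Cyp1a2 closely in Krt19-high nodules (r = 0.96, permutation p adjusted = 0.0034, rho = 0.87, adjusted p = 0.043). In Krt19-low nodules r was 0.77 (permutation p adjusted = 0.042), and 0.41 without nodules 8 and 23. In aHCC it was 0.71 (exact permutation p adjusted = 0.13, rho = 0.40), and 0.28 without aHCC 29. Control liver gave r = -0.37 for this pair. Oat and Avpr1a gave r = 0.90 in Krt19-high nodules (permutation p adjusted = 0.012) and 0.86 there without nodules 15 and 17. In Krt19-low nodules r was 0.76 (permutation p adjusted = 0.060) with rho = 0.85 (adjusted p = 0.043). In aHCC it was 0.87 (exact permutation p adjusted = 0.031), and 0.64 without aHCC 29. Control liver showed no relation of Oat and Avpr1a (r = -0.03, rho = -0.05, permutation p = 0.94). In aHCC 7 of the 10 pairs of the 5 well-detected members passed. Cyp1a2 gave r = 0.89 with Cyp2e1 and 0.92 with Rgn there (exact permutation p adjusted = 0.0048 in each), and 0.84 and 0.82 without aHCC 29. Cyp2e1 and Rgn had the highest r in aHCC, 0.99 (exact permutation p = 0.00025, adjusted p = 0.0048), with rho = 0.90. Without aHCC 29 and 36 their r was 0.94 (exact permutation p = 0.018). In Krt19-high nodules the same pair gave r = 0.55 (permutation p = 0.092, adjusted p = 0.19), in Krt19-low nodules 0.15 and in control liver 0.45, and neither of the last passed.

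The relation of each member to Krt19 was computed in the same 4 sets, 28 tests adjusted together, and was chosen after the values were seen. All 7 members had a negative r with Krt19 in aHCC, with a median of -0.70, and 6 of 7 in each nodule set, but 1 of 7 in control liver. The relation passed in aHCC for Axin2 (r = -0.90, exact permutation p = 0.00054, adjusted p = 0.015, rho = -0.90), Tbx3 (r = -0.87, exact permutation p = 0.0012, adjusted p = 0.017, rho = -0.92) and Cyp1a2 (r = -0.81, exact permutation p = 0.0063, adjusted p = 0.044, rho = -0.88), and in Krt19-high nodules for Cyp2e1 (r = -0.83, permutation p = 0.0027, adjusted p = 0.025, rho = -0.59). Without aHCC 28 and 30, which had the least Krt19, r was -0.79 for Axin2, -0.80 for Tbx3 and -0.76 for Cyp1a2 (exact permutation p = 0.039, 0.031 and 0.040). Without nodules 1 and 15, r for Cyp2e1 was -0.70 (exact permutation p = 0.060), and none of the 28 passed after adjustment when such arrays were left out. With neqc the Cyp1a2 relation in aHCC was lost (r = -0.74, adjusted permutation p = 0.12). By Spearman's rho that of Cyp2e1 in Krt19-high nodules was lost (adjusted permutation p = 0.26). Centred on each series of numbers, Cyp1a2 (r = -0.83) and Rgn (r = -0.81) passed in Krt19-high nodules as well (adjusted permutation p = 0.036 in each). Most aHCC values of Axin2 were below detection.

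Genes most like each member were taken from 9260 named genes by Pearson's r over 48 arrays, as a description, since arrays of a group share its differences. Cyp1a2 and Oat were each other's nearest gene (r = 0.97 over all arrays and 0.89 after centring on the 8 sample sets), followed by Rdh7 for Cyp1a2 (0.93) and Oaf for Oat (0.95). After centring, the next were Amacr (0.85) and Slc13a3 (0.76). Avpr1a was nearest to Agxt (0.95) and Ust5r (0.95), and after centring to Sult1c3 (0.84) and C6 (0.82). Cyp2e1 was nearest to Cyp2a2 (0.94, and 0.95 centred), then to Vtn (0.93) and, centred, Slco1b2 (0.93). Rgn was nearest to Cdo1 and Lipc (0.92 and 0.91), and after centring to Amacr (0.93) and Cyp2e1 (0.92). The dim genes had looser neighbours, Smad7 (0.72) and Irf2bp1 (0.69) for Axin2 and Gsdmd (0.69) and Cisd1 (0.69) for Tbx3, with centred values of 0.68 (Adrm1) and 0.67 (Smad7) for Axin2 and 0.62 (Pex14 and Rpp25l) for Tbx3.

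Other perivenous genes, 12 tested of 17 listed, did not move one way. In nodules 1 to 5, 5 were lower and 3 higher than in control liver, where 13.4% of all features were lower and 13.5% higher. The P450 Cyp3a9 (-3.02 ± 0.46), the dicarboxylate carrier Slc13a3 (-1.89 ± 0.33) and the hepatokine gene Lect2 (-0.92 ± 0.35) had the largest falls. Aldh1a1, a retinaldehyde dehydrogenase (2.75 ± 0.36), Rhbg, an ammonium transporter (2.75 ± 0.34), and Nr1i3, the nuclear receptor CAR (1.29 ± 0.23), rose. The same 3 genes were the ones higher in nodules 6 to 10 and 20 to 24, where 0 of 12 were lower, with Rhbg at 2.07 ± 0.34 and 2.41 ± 0.34, Aldh1a1 at 1.65 ± 0.36 and 1.80 ± 0.36 and Nr1i3 at 1.15 ± 0.23 and 1.30 ± 0.23. Of all features 5.04% were lower and 4.92% higher in nodules 6 to 10, and 3.56% and 3.72% in nodules 20 to 24. In eHCC 6 were lower, led by Cyp3a9 (-4.04 ± 0.54), Cyp7a1, the rate-limiting enzyme of bile acid synthesis (-2.93 ± 0.56), and Slc13a3 (-1.84 ± 0.41), and 3 higher, with Aldh1a1 at 2.99 ± 0.39, Rhbg at 2.06 ± 0.34 and Slc1a4 at 0.16 ± 0.06. Of all features 15.1% were lower and 17.0% higher in eHCC. The list median was -0.16 in nodules 1 to 5 and -0.41 in eHCC.

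Periportal genes were lower in most cases in the later lesions and in fewer cases in nodules. Of 19 tested of 25 listed, 12 were lower in adenomas (12.6% of all features), 15 in eHCC (15.1%) and 17 in aHCC (18.8%). In nodules 1 to 5, 9 were lower (13.4% of all features), in nodules 15 to 19, 7 (14.5%), in nodules 6 to 10, 2 (5.04%), and in nodules 20 to 24, 2 (3.56%). Among these sets 1, the serine dehydratase Sds in nodules 20 to 24 (2.33 ± 0.53), was higher. The largest falls were in G6pc1 (-2.43 ± 0.47), Hal (-1.64 ± 0.19) and Pck1 (-1.48 ± 0.45) in nodules 1 to 5, in Sds (-3.80 ± 0.60), Pck1 (-3.50 ± 0.51) and G6pc1 (-3.03 ± 0.59) in eHCC, and in G6pc1 (-2.78 ± 0.50), Pck1 (-2.17 ± 0.43) and Gls2 (-2.03 ± 0.37) in aHCC. G6pc1 and Pck1 make glucose, Hal and Sds break down histidine and serine, and Gls2 is the liver glutaminase. Median differences were -0.56 in nodules 1 to 5, -1.08 in eHCC and -1.24 in aHCC, against -1.32, -2.39 and -1.48 for the 7 perivenous members.

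**Figure D4:**
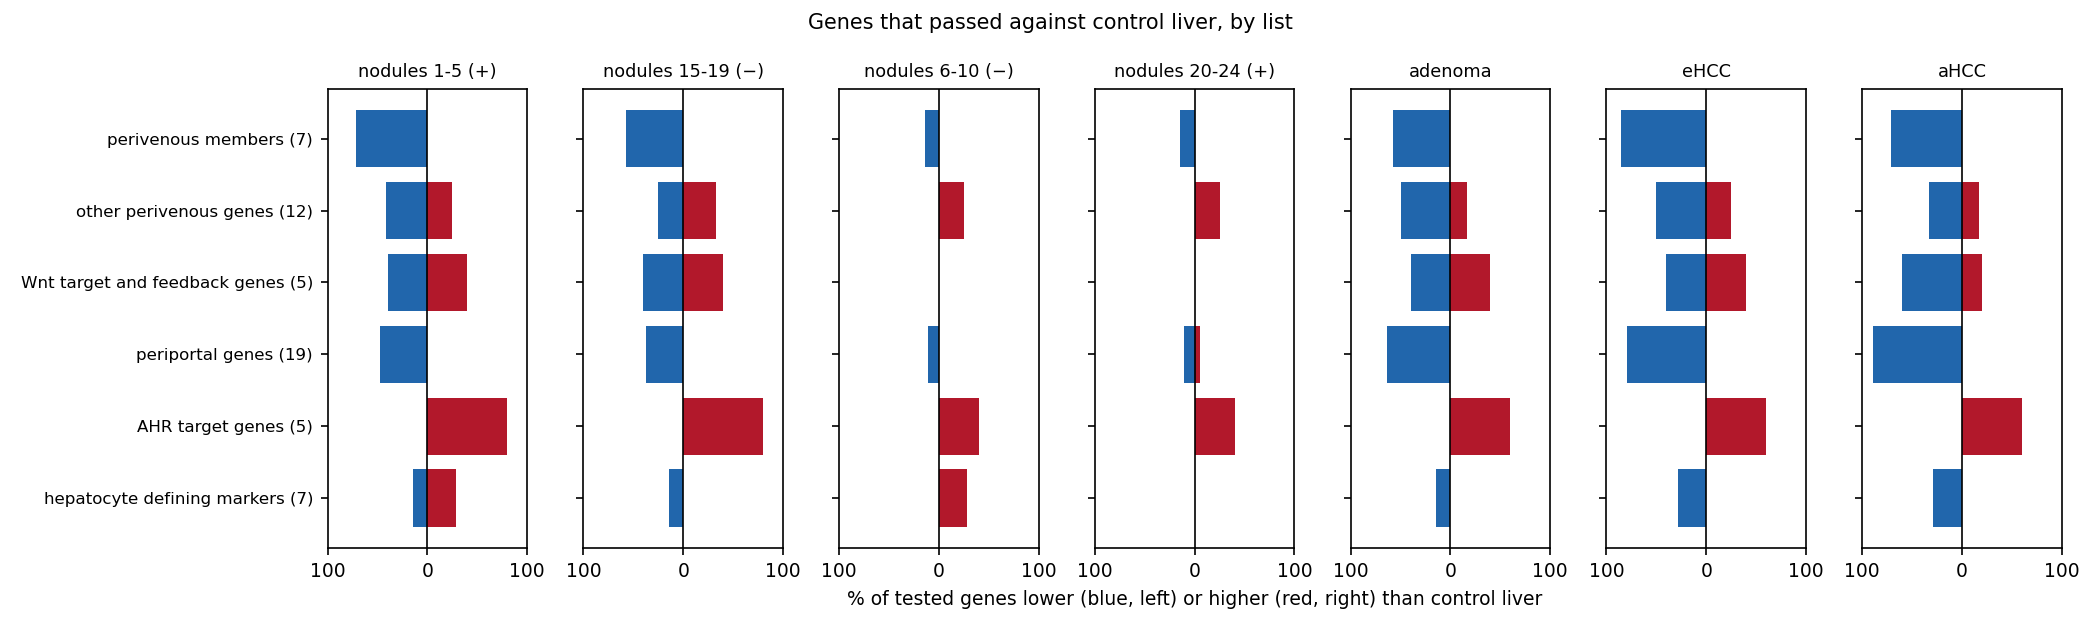
Share of the tested genes of each list (number tested in brackets) that were lower (blue, left) or higher (red, right) than control liver at an adjusted p under 0.05, by lesion set; horizontal axis in percent. Members and periportal genes were lower in eHCC (6 of 7 and 15 of 19), aryl hydrocarbon receptor (AHR) targets were higher (3 of 5), and the other perivenous genes went both ways (6 lower and 3 higher of 12). Of all features 15.1% were lower and 17.0% higher there.

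Wnt pathway genes were read beside the members. Of 5 other genes tested from a list of Wnt target and feedback genes, the Wnt deacylase Notum and the R-spondin receptor Lgr4 were lower in nodules 1 to 5 (-1.39 ± 0.29 and -0.79 ± 0.12). Myc and Ccnd1 were higher there (1.76 ± 0.31 and 1.19 ± 0.32). In eHCC the differences were -2.34 ± 0.34 for Notum, -0.90 ± 0.16 for Lgr4, 2.16 ± 0.35 for Myc and 1.27 ± 0.33 for Ccnd1. None of the 5 passed in nodules 6 to 10 (5.04% of all features lower and 4.92% higher) or 20 to 24 (3.56% and 3.72%). Among 18 core components, receptors and ligands tested of 26 listed, 7 were lower and 2 higher in aHCC. Lrp5 (-1.62 ± 0.23) and Fzd8 (-1.01 ± 0.13), both receptors for Wnt ligands, and the adaptor Dvl1 (-0.53 ± 0.18) had the largest falls there, while Wls, needed to secrete Wnt proteins (0.67 ± 0.17), and Dkk3 (0.19 ± 0.06) rose. In nodules 1 to 5, 3 were lower (Lrp5, Fzd8 and Lrp6) and 0 higher. Of all features 18.8% were lower and 19.2% higher in aHCC, and 13.4% and 13.5% in nodules 1 to 5, so the 3 of 18 lower in nodules 1 to 5 is a share near that of all features.

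Cyp1a2 is also a known target of the aryl hydrocarbon receptor (AHR), and the other targets that passed were all higher in lesions. Of 5 tested of 7 listed, 4 were higher in nodules 1 to 5 and in nodules 15 to 19, 2 in nodules 6 to 10 and 20 to 24, and 3 in adenomas, eHCC and aHCC, with none lower. The shares of all features that were higher ran between 3.72% in nodules 20 to 24 and 19.2% in aHCC. In nodules 1 to 5 the quinone reductase Nqo1, which is also an NRF2 target, was higher by 4.43 ± 0.22, the glucuronosyltransferase Ugt1a6 by 3.53 ± 0.37 and Aldh3a1 by 2.16 ± 0.43. In eHCC these differences were 4.65 ± 0.37, 3.62 ± 0.45 and 3.29 ± 0.52. Cyp1a1 and Cyp1b1, also tested, gave dim signals, with means of 7.15 and 7.35 in eHCC and 7.44 and 7.35 in aHCC, and neither passed in eHCC. Since 5 targets were tested, the counts of 4 in nodules 1 to 5 and 15 to 19 take in Cyp1a1 or Cyp1b1. Krt19-low nodules had Nqo1 higher by 2.72 ± 0.22 (6 to 10) and 2.75 ± 0.22 (20 to 24), where Cyp1a2 differed by -0.12 and -0.45. Within their own set of 12 sample numbers the Cyp1a2 difference in nodules 20 to 24 was -1.13. Whether AHR activity changed in the lesions was not tested.

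Genes of glutamine and ornithine metabolism, the setting of Oat, numbered 9 tested of 13 listed. In aHCC 6 were lower and 1 higher (18.8% and 19.2% of all features), and in nodules 1 to 5, 4 were lower and 1 higher (13.4% and 13.5%). The falls in aHCC were largest for the glutamine transporter Slc38a3 (-1.25 ± 0.26), the mitochondrial ornithine carrier Slc25a15 (-1.20 ± 0.19) and Glud1, glutamate dehydrogenase (-0.91 ± 0.14). Odc1, the ornithine decarboxylase that starts polyamine synthesis, was higher in aHCC (2.07 ± 0.24), eHCC (2.46 ± 0.29), adenomas (2.41 ± 0.31) and all 4 nodule sets (1.98 ± 0.26, 1.79 ± 0.26, 1.08 ± 0.26 and 1.35 ± 0.26 in nodules 1 to 5, 15 to 19, 6 to 10 and 20 to 24). Oat and Odc1, which both use ornithine, thus went in opposite directions in nodules 1 to 5 and 15 to 19, adenomas, eHCC and aHCC.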

How the data were processed

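RNA of 48 laser-captured pieces of rat liver was hybridised to single-colour Illumina arrays. The authors deposited, for 22523 probes on every array, an intensity and a p-value of detection. BeadStudio 3.0.19.0 is the software that the submitters' processing notes name. The deposited intensity was called non-normalized, but its distribution was nearly the same in all arrays (medians 159.0 to 159.6), as after quantile normalization, and its lowest value was 96.8, so background had not been subtracted. A second deposited table was identical (largest difference 0). No build is named in the labels for the probes.

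Log2 intensity was used without further normalization. The design assumed raw intensity, and normexp background correction with quantile normalization (neqc) was kept as an alternative. Probes detected (deposited detection p-value under 0.05) in at least 4 arrays were kept, 13679 in number. Of all probes 13793 carried 1 gene symbol, 0 several and 8730 none, and 13752 identifiers matched the RefSeq table of GRCr8. With the brightest probe per symbol, 13479 features (9273 named genes and 4206 unnamed probes) were tested. A level of 1 probe is not comparable with that of another.

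Groups came from the sample titles. Linear models with moderated variances (limma 3.58.1, R 4.3.3) were fitted, 1 with the 6 title groups and 1 with nodules split into 4 ranges of sample numbers, and were tested on simulated data. Benjamini-Hochberg adjustment ran across the 13479 features separately for each comparison, with 0.05 as the limit on the adjusted p. Values are means ± SD, differences ± SE. The members and the other gene lists, the nodule split and the tests were chosen with earlier results of these data known. From each other list the 3 largest rises and falls that passed were named, and for each member the 2 genes most like it in 2 ways. No labelled batch was found. Sets of 12 consecutive sample numbers were tried as a block and analysed within. The number of arrays limits precision, and so do the limits given with the genes.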

Additional observations from a re-analysis of the deposited data

Results flagged for a closer look

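Among 80 sets of values screened for an array that stands apart from its group (7 members and Krt19, in groups of 4 to 10), 10 were picked out, and chance alone picks about 1 in 20. In KRT19-negative nodules 6 to 10, nodule 8 was the highest for Oat (13.74, the next being 12.58) and Cyp1a2 (13.17, the next being 12.07). KRT19-positive nodule 1 was the lowest for Cyp2e1 (14.01, the next being 14.89), both among nodules 1 to 5 and among all 10 KRT19-positive nodules, and it was the highest of nodules 1 to 5 for Krt19 (13.15, the next being 12.03). In aHCC, replicate 29 was far below the others for Cyp2e1 (9.82, the next being 13.71) and Rgn (7.62, the next being 10.79), and it also had the lowest hepatocyte marker sum (16.9). The eHCC replicate 44 stood above the others for Avpr1a (8.99, the next being 7.59). In KRT19-positive nodules 20 to 24, nodule 22 was the lowest for Axin2 (7.15, below detection, the next being 7.41), and control 27 was the highest control for Krt19 (8.76, the next being 8.05).

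The KRT19 label went with lower values in the first series of nodule numbers and with higher values in the second for Avpr1a, Cyp1a2 and Oat. The test of this, scaled as the mean of nodules 1 to 5 and 15 to 19 minus the mean of nodules 6 to 10 and 20 to 24, gave -1.82 for Avpr1a, -1.89 for Cyp1a2 and -1.83 for Oat on the log2 scale.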

How the results depend on the processing

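Over 1294 member values under other settings, 1188 kept direction and side of the threshold, 46 were lost, 53 were gained and 7 changed sign with a call. Leaving out 1 array gave 1526 of 1617 unchanged, 69 lost, 22 gained and 0 turned. A further 74 sign changes, between -0.30 and 0.46, passed under neither setting. The 7 were Tbx3 in eHCC (0.00439, with sets of 12 as a block and within set 4 of 12 arrays) and, for KRT19-positive minus KRT19-negative nodules within set 2, Avpr1a (1.37), Cyp1a2 (1.35), Cyp2e1 (0.52), Oat (1.60) and Rgn (0.65). In every alternative and every fit without 1 array Avpr1a, Cyp1a2 and Oat kept their calls in nodules 1 to 5, adenomas and eHCC. Cyp1a2 in aHCC was lost within set 3 (adjusted p = 0.11, alternatives 4.4e-07 to 0.11).

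Members called in KRT19-positive nodules against control liver (3) were 5 with the block, 5 within set 1, 1 without controls 11 to 14 and 5 without controls 46 to 48. In KRT19-negative nodules (1) they were 5 with array weights, 3 with the block, 5 within set 2 and 2 without controls 46 to 48. In aHCC (5) they were 3 with the block, 2 within set 3 and 3 within set 3 without replicate 29, and in aHCC against eHCC (1), 4 with array weights and 0 with the block, where Cyp1a2 had an adjusted p = 0.65. Between the labels (0) they were 5 within set 1 and 5 within set 2. Without controls 11 to 14 nodules 1 to 5 had 3 in place of 5. Nodules 6 to 10 (1) had 2 without controls 46 to 48. Nodules 20 to 24 (1) had 0 with neqc, 0 with the block, 2 within set 2 and 2 without controls 46 to 48. Nodules 20 to 24 against 15 to 19 (2) had 4 with array weights, 1 with neqc, 1 without the detection filter and 5 within set 2. Krt19-high against Krt19-low nodules (3) had 5 with array weights. Correlated pairs (16) were 6 by Spearman's rho and 0 without the 2 farthest arrays, and for Krt19 (4) 0 without the 2 farthest arrays.

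Leaving out 1 array at a time, members called ranged from 2 to 5 in KRT19-positive and 1 to 3 in KRT19-negative nodules, 3 to 4 in adenomas, 4 to 6 in eHCC, 4 to 6 in aHCC, 0 to 2 in aHCC against eHCC, 3 to 6 in nodules 1 to 5, 3 to 4 in nodules 15 to 19, 1 to 2 in nodules 6 to 10, 1 to 1 in nodules 20 to 24, 3 to 4 for nodules 1 to 5 against 6 to 10, 0 to 2 for nodules 20 to 24 against 15 to 19, 3 to 4 for Krt19-high against Krt19-low nodules, and 0 to 0 for eHCC against adenomas and between the labels.

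Counts of all features called moved over 1.5 times in 23 of 186 settings. With array weights they were 5618 against 2633 (KRT19-negative), 3803 against 2134 (aHCC against eHCC), 32 against 0 (between labels), 6149 against 3994 (nodules 15 to 19), 2259 against 981 (20 to 24), 4306 against 855 (20 to 24 against 15 to 19) and 4288 against 2584 (Krt19-high against Krt19-low). With the block they were 1517 against 2517 (KRT19-positive), 1529 against 2633 (KRT19-negative), 2077 against 5120 (aHCC), 1 against 2134 (aHCC against eHCC), 2077 against 3630 (1 to 5), 1657 against 3994 (15 to 19), 521 against 1343 (6 to 10) and 220 against 981 (20 to 24). Within set 1 they were 358 against 2633 (KRT19-negative), 1545 against 0 (between labels) and 358 against 1343 (6 to 10). Within set 2 they were 1290 against 2517 (KRT19-positive), 4215 against 2633 (KRT19-negative), 3484 against 0 (between labels) and 3484 against 855 (20 to 24 against 15 to 19), and within set 3, 1075 against 5120 (aHCC). Fits within a set have fewer arrays, and the cause of the other shifts was not tested. No paired analysis was possible because sample numbers are unique and no 2 groups share one. Precision is limited by groups of 4 to 10 arrays, by uncorrected background for Axin2 and Tbx3 and by the upper end of the scale for Cyp2e1.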
